A study of Mus musculus with 9 samples.

Results

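Endothelial cells line the vessels of the brain, and 39 genes that mark these cells or build the blood-brain barrier were read in the substantia nigra of mice given the dopaminergic toxin MPTP, with or without wheel running. The genes were chosen by symbol, each symbol was matched to an Ensembl gene through GENCODE M21, and all 39 were found among the 55335 genes of the deposited table. All 39 also passed the filter used for testing, a mean of at least 0.5 FPKM over the 9 libraries (FPKM is fragments normalized to transcript length and to the fragments of the library), which 15997 genes passed. The running libraries came from mice that received MPTP-HCl in saline by intraperitoneal injection, at 20 mg/kg in 2 injections per week for 5 weeks, and that had a wheel for 2 months of voluntary exercise after the first injection. The MPTP libraries came from mice with the same injections, and the vehicle libraries from mice given saline on that schedule, so that MPTP is shared by the running and the MPTP group. Each group has 3 libraries, and the design speaks of 3 mice per group. The sources used here give no strain, sex or age. Whether each library is a separate mouse is left unsaid there, and a p-value here reflects library-to-library spread, which may be technical.

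In the brain, endothelial cells are sealed to each other by tight junctions, of which claudin-5 is the main strand protein, and they carry few pinocytic vesicles. Nutrients therefore cross on dedicated carriers, such as the glucose transporter GLUT1, and efflux pumps such as P-glycoprotein return many drugs to the blood. VEGF receptors and the angiopoietin receptor Tie2 maintain the vessel, Wnt ligands from neural cells keep the barrier programme on, and transcription factors of the ETS and SoxF families hold endothelial identity. The 39 genes are given below by role, as adhesion and junction proteins (6 genes), receptors (8), other surface proteins (7), transporters (8), transcription factors (6) and secreted proteins or enzymes (4).

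Many endothelial promoters and enhancers carry the core motif of ETS factors, to which Erg, Fli1 and Ets1 of the list belong, and the promoters of 4 of the genes with the clearest separation between groups, or with a defining role, are shown for that reason. The sequences are RefSeq promoters on GRCm38.p6, the 250 bases before the gene start, 5′ to 3′ on the gene's strand. Capitals mark the forms CCGGAA or CAGGAA on either strand, so that the reverse complement reads TTCCGG or TTCCTG. Other settings of the letters GGAA, such as GAGGAAG in the Flt1 window, were not marked.
Tek (chr4:94739039-94739288, plus strand): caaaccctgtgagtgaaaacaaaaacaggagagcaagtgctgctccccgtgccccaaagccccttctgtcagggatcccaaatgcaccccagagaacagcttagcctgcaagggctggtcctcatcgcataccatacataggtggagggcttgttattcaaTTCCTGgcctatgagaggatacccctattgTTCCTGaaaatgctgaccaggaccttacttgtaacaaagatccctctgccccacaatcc
Kdr (chr5:75978456-75978705, minus strand): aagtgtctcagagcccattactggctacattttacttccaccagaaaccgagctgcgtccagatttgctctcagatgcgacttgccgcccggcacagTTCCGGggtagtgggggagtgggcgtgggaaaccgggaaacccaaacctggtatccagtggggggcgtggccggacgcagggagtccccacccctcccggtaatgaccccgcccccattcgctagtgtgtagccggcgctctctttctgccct
Flt1 (chr5:147726012-147726261, minus strand): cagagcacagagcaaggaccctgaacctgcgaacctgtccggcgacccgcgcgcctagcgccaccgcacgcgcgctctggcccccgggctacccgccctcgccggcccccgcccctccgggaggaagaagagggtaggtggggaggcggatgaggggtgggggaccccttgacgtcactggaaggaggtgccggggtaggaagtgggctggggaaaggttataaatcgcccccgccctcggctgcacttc
Cldn5 (chr16:18776597-18776846, plus strand): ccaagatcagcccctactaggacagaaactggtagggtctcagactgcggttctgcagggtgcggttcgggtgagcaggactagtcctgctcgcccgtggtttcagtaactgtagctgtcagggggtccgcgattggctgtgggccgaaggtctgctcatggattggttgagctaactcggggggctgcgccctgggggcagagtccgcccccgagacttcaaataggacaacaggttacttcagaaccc
Tek, the angiopoietin receptor, held 2 matches, Kdr, the main VEGF receptor, held 1, and the windows of Flt1 and Cldn5 held 0. A RefSeq promoter was at hand for 22 of the 39 genes, and 14 of these 22 (63.6%) had the motif in the window from 250 bases before to 50 bases after a start, against 44.7% of 27025 genes with such a promoter. The longer CCGGAAG or CAGGAAG was in 7 of the 22 (31.8%), against 23.1% of all genes, and lies within the shorter motif. A match is a description of letters, and no match says only that these letters are not in this window.

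The libraries held an estimated 22065313 to 26766595 fragments, inferred from the spacing of the lowest FPKM of 19516 single-transcript genes, so 1 FPKM on a transcript of 1 kilobase is about 22.1 to 26.8 fragments. FPKM summed to 331121 to 344049 in running libraries, 326614 to 347524 in MPTP libraries and 318416 to 319431 in vehicle libraries. The dopaminergic markers that define the dissected region varied within each group. Th, tyrosine hydroxylase, was at 2.66, 5.35 and 6.69 FPKM in running libraries, 5.93, 1.64 and 12.5 in MPTP libraries and 5.30, 2.97 and 15.6 in vehicle libraries. Slc6a3, the dopamine transporter, was at 2.75, 0.0377 and 14.4 FPKM in MPTP libraries and 3.40, 1.41 and 10.8 in vehicle libraries, and among the running libraries it was at 0.149 in replicate 1, listed at 0 in replicate 2 and at 10.6 in replicate 3.

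All 39 genes were detected, although at low levels for most of them, and detection in bulk tissue does not test the endothelial label. Mean FPKM over the 9 libraries ran from 0.611 for the SoxF factor Sox7 to 137 for Bsg, the carrier partner basigin, with a median of 3.56. Of the 39 genes, 9 were at 10 FPKM or more, 28 between 1 and 10, and 2 (Sox7 and Sox17) under 1. The 9 were Bsg, Itm2a, Slc2a1, Ly6c1, Ly6a, Cldn5, Slc16a1, Slco1c1 and Slco1a4. Of these, Bsg, Slc2a1, Slc16a1 and Slco1c1 are also made by other brain cells. Together the 39 genes took 0.0938 to 0.107% of all FPKM in running libraries, 0.115 to 0.126% in MPTP libraries and 0.111 to 0.118% in vehicle libraries. These shares were lowest in the 3 running libraries, but the total FPKM differed between libraries, and the summed FPKM of the 39 genes was 323 to 363 in running, 385 to 436 in MPTP and 354 to 374 in vehicle libraries, so that running and vehicle libraries overlapped in the sum. Within a group the coefficient of variation of a gene had a median of 13.9% in running, 11.9% in MPTP and 13.7% in vehicle libraries, and its widest value was that of Ly6a in MPTP libraries, at 43.9%. In bulk tissue fewer endothelial cells and less RNA per cell cannot be told apart.

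**Figure D1:**
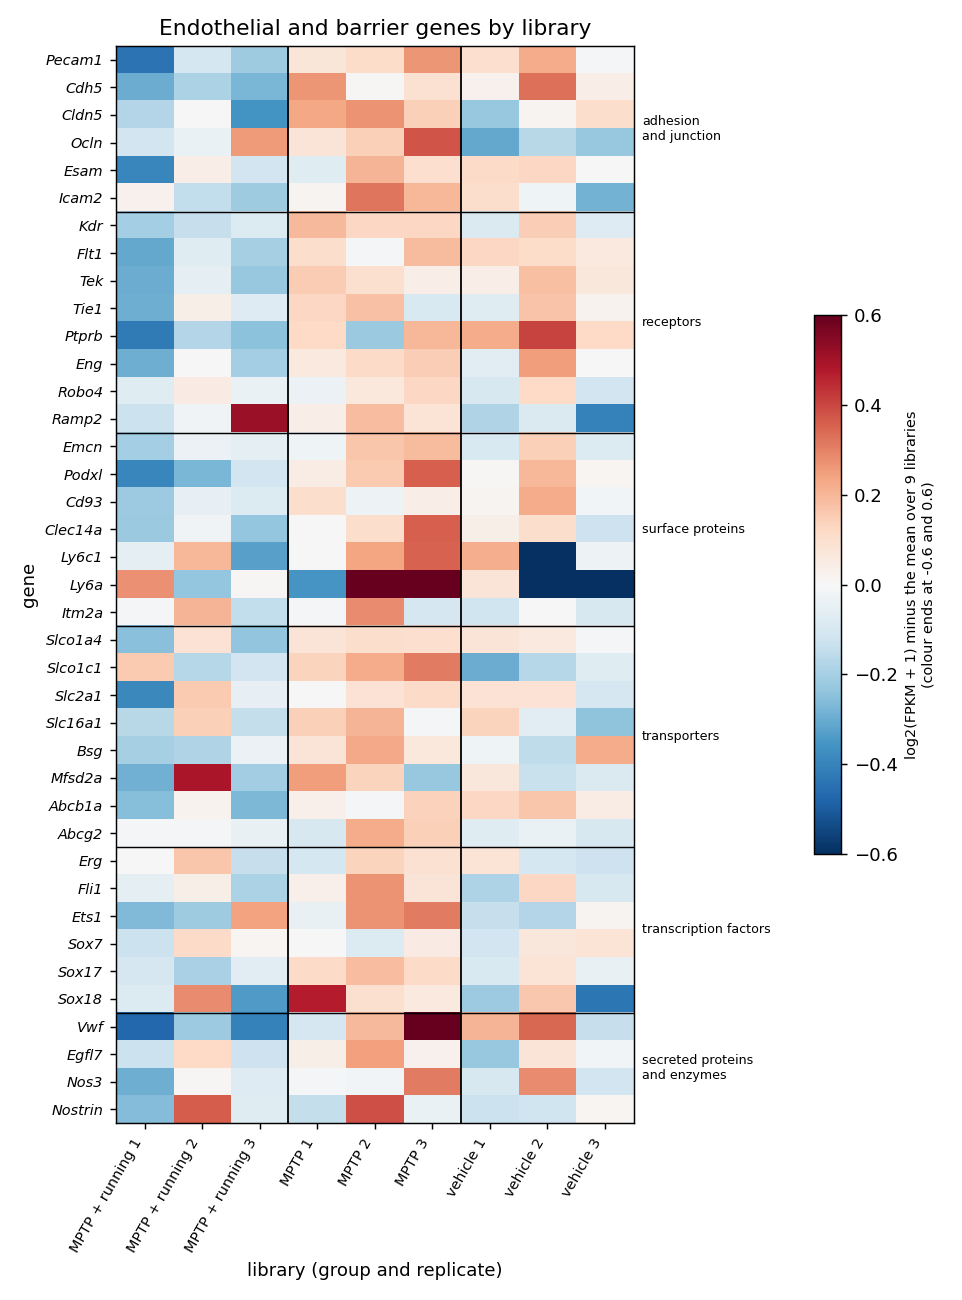
Each row is 1 of the 39 genes, ordered by role, each column is 1 library, and the colour is log2(FPKM + 1) minus the gene's mean over the 9 libraries. Running replicate 1 is the bluest column, with the lowest value of 21 of the 39 genes, and MPTP replicates 2 and 3 hold the highest value of 14 and 12 genes.

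The question put by MPTP against vehicle was whether repeated toxin injections move the genes of the vessel wall. Of the 39 genes, 32 had a higher fitted mean in MPTP libraries and 7 a lower one, where 48.1% of all 15997 genes were higher and 51.8% lower, and the median difference of log2(FPKM + 1), MPTP minus vehicle, was 0.11 for the 39 genes and −0.01 for all genes. All differences below are on this scale, which understates the change of genes near or under 1 FPKM. Among the genes higher in every MPTP library than in any vehicle library, 3 barrier genes had the smallest unadjusted limma p. They were Slco1c1, the thyroid hormone carrier, Ocln, the tight junction protein occludin, and Cldn5, claudin-5. Ly6a had a smaller p than Cldn5, but its groups overlapped. Some other barrier genes lay near 0, with Slc2a1 at 0.04, Cdh5 at −0.01 and Abcb1a at −0.06. All 13 choroid plexus markers also had higher means in MPTP libraries, and their part in these genes was not tested. None of the 39 passed the threshold, a Benjamini-Hochberg adjusted p of 0.05 in limma's moderated test on log2(FPKM + 1), two-sided, which 2 genes (0.0125% of all genes tested) passed. At an unadjusted p under 0.05, 3 were higher (Slco1c1, Ocln and Ly6a) and 0 lower, where 2.61% of all genes were higher and 1.48% lower. The values of the groups did not overlap for 6 genes that were higher in MPTP libraries (Cldn5, Ocln, Ramp2, Sox17, Slco1c1 and Slco1a4) and for 0 that were lower, where 5.2% and 4.23% of all genes were so. For 3 against 3 libraries without overlap, the exact two-sided permutation test over 20 splits gives p = 0.1, the smallest it can give. This test takes the libraries as unpaired, and flips within 3 pairs could not reach so small a p. Rescaling each library to the same FPKM sum took the median difference of the 39 genes to 0.04. It left 13 in place of 7 below 0, and it took the median of all genes from −0.01 to −0.07. Array weights took the median of the 39 genes to 0.06. Without vehicle replicate 2 only 2 of the 39 were below 0. Without MPTP replicate 1, or without vehicle replicate 1, 5 genes in place of 3 were higher at an unadjusted p under 0.05.

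Running libraries against MPTP libraries address whether exercise alters the same genes under the toxin. The genes lay lower in the running libraries almost throughout, 37 of the 39 against 2 that lay higher, where 54.3% of all genes were lower and 45.7% higher, and their median difference, running minus MPTP, was −0.23, against −0.01 for all genes. The separation was clearest for Pecam1, Cdh5, Cldn5, Podxl, Tek and Flt1, which are proteins of the endothelial junction, of the luminal surface and of VEGF and angiopoietin reception. None of the 39 passed limma's Benjamini-Hochberg threshold of 0.05, the adjusted p of all 39 was 1, and 0 of the 15997 genes (0%) passed. At an unadjusted p under 0.05 in limma, 462 of all genes were lower and 177 higher. Among the 39 this held for 15 genes that were lower and 0 that were higher, where 2.89% of all genes were lower and 1.11% higher. The values of the groups did not overlap for 14 genes that were lower in running libraries and 0 that were higher, where 5.36% and 2.66% of all genes were so. The 14 are Pecam1, Cdh5, Cldn5, Kdr, Flt1, Tek, Eng, Emcn, Podxl, Cd93, Clec14a, Bsg, Sox17 and Vwf. Fitted differences ran from −0.60 (Vwf) to 0.02 (Ramp2), and Sox7 (0.01) was the other gene above 0. Without MPTP replicate 3, 9 in place of 15 were lower at an unadjusted p under 0.05. The 39 genes are read from the same libraries and are not replicates of each other.

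Running libraries against vehicle libraries set toxin plus exercise against neither. The median difference, running minus vehicle, was −0.10 for the 39 genes and −0.02 for all genes, with 24 of the 39 lower and 15 higher, where 55.3% of all genes were lower and 44.7% higher. The lower genes were led by Ptprb, the endothelial phosphatase VE-PTP, with Cdh5, Flt1, Pecam1, Tek and Podxl after it, and Ocln was the 1 gene whose values were all higher in running libraries. None passed limma's Benjamini-Hochberg threshold of 0.05, the adjusted p of the 9 genes that were lower without overlap lay at 0.753, and 0 of 15997 genes (0%) passed, with 548 lower and 499 higher at an unadjusted p under 0.05. Among the 39, 8 were lower and 0 higher at that unadjusted p in limma, where 3.43% of all genes were lower and 3.12% higher. The values did not overlap for 9 lower genes and 1 higher gene, where 9.2% and 6.38% of all genes were so. The 8 at an unadjusted p under 0.05 were Ptprb, Cdh5, Flt1, Pecam1, Tek, Podxl, Abcb1a and Vwf, and the ninth without overlap was Cd93. Without running replicate 1 the median difference was −0.06, and 5 genes in place of 8 were lower and 2 in place of 0 higher at an unadjusted p under 0.05. Without vehicle replicate 2 the median was −0.05, with 5 such genes as well. It was −0.07 under median-ratio scaling, where the median of all genes was 0.02, and −0.05 under quantile normalization. The count of higher genes was also 2 under median-ratio scaling, quantile normalization and array weights, and 1 without MPTP replicate 3 or with the replicate block. The 3 comparisons share libraries pair by pair, so their results are not independent of each other.

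**Figure D2:**
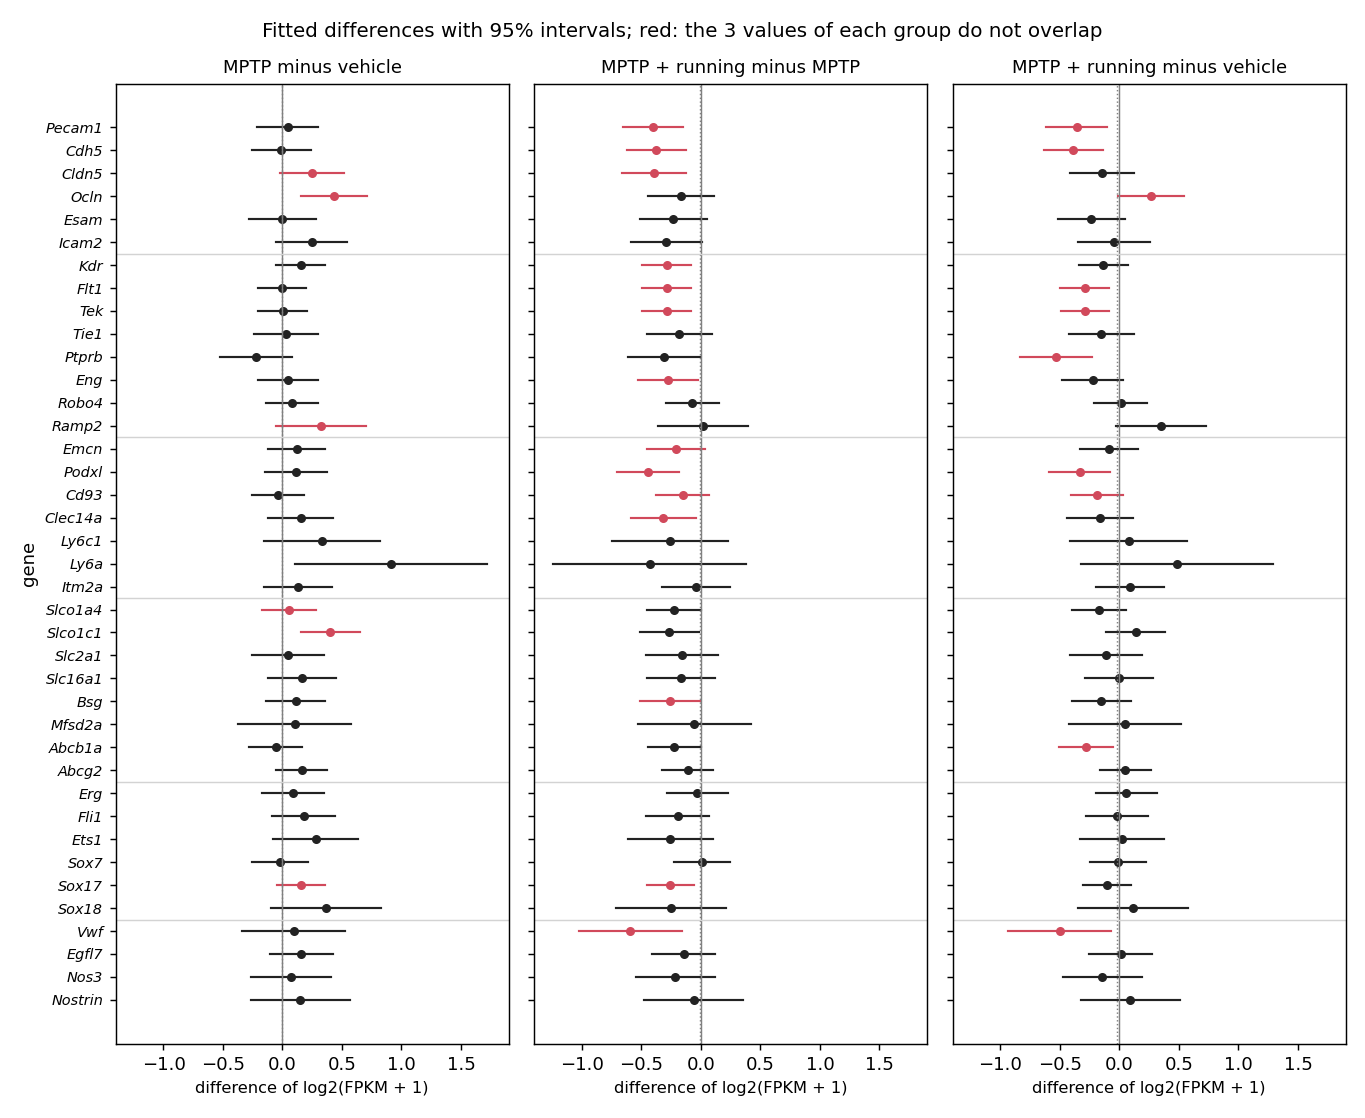
Points are fitted differences of log2(FPKM + 1) for each of the 39 genes in MPTP minus vehicle, MPTP + running minus MPTP and MPTP + running minus vehicle, bars are 95% intervals, red marks groups whose 3 values do not overlap, and the dotted line is the median of all genes. In the middle panel 37 of the 39 points lie below 0, and in the left panel 32 lie above it.

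Among the adhesion and junction genes, all 6 were lower in running than in MPTP libraries, with a median difference of −0.33, and the median was 0.14 for MPTP minus vehicle and −0.19 for running minus vehicle. Pecam1, the platelet and endothelial adhesion molecule CD31, was at 2.33, 3.20 and 2.89 FPKM in running libraries, 3.75, 3.88 and 4.42 in MPTP libraries and 3.85, 4.28 and 3.49 in vehicle libraries. Every running value lay below every other value, while MPTP and vehicle libraries overlapped. Its fitted difference was −0.40 (SE 0.11) for running minus MPTP and −0.36 (SE 0.11) for running minus vehicle, with unadjusted limma p of 0.00608 and 0.0111 and adjusted limma p of 1 and 0.753. Cdh5, VE-cadherin of the adherens junction, was at 3.20, 3.52 and 3.27 FPKM in running libraries, 5.20, 4.19 and 4.51 in MPTP libraries and 4.26, 5.49 and 4.31 in vehicle libraries. Again the 3 running values were the 3 lowest, at 3.33 ± 0.168 FPKM in running libraries, 4.63 ± 0.517 in MPTP libraries and 4.69 ± 0.696 in vehicle libraries (mean ± SD, n = 3 each). The differences were −0.38 (SE 0.11) against MPTP and −0.39 (SE 0.11) against vehicle (limma, adjusted p = 1 and 0.753).

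The tight junction proteins did not follow 1 order of groups. Cldn5 was at 13.2, 15.0 and 11.5 FPKM in running libraries, 17.9, 18.3 and 16.7 in MPTP libraries and 12.7, 15.2 and 16.3 in vehicle libraries. MPTP libraries were all above the rest, and running and vehicle libraries overlapped. The fitted difference was 0.25 (SE 0.12) for MPTP minus vehicle and −0.39 (SE 0.12) for running minus MPTP (limma, adjusted p = 0.991 and 1), and without vehicle replicate 1 the first was 0.16. Ocln, occludin, was at 2.41, 2.59 and 3.41 FPKM in running libraries, 2.90, 3.07 and 3.80 in MPTP libraries and 1.99, 2.30 and 2.16 in vehicle libraries. For occludin the vehicle libraries were the 3 lowest, and running and MPTP libraries overlapped. It was 0.43 higher in MPTP than in vehicle libraries (SE 0.12, limma adjusted p = 0.868) and 0.27 higher in running than in vehicle libraries (SE 0.12, limma adjusted p = 0.753). Without running replicate 3 the second value was 0.15. Esam, an endothelial adhesion molecule of the immunoglobulin family, averaged 3.999 ± 0.737 FPKM in running, 4.84 ± 0.560 in MPTP and 4.84 ± 0.285 in vehicle libraries. Icam2, a ligand of leukocyte integrins, was at 1.04, 0.813 and 0.729 FPKM in running libraries, 1.03, 1.51 and 1.30 in MPTP libraries and 1.16, 0.975 and 0.650 in vehicle libraries. Its groups overlapped, with 0.25 (SE 0.13) for MPTP minus vehicle (limma adjusted p = 0.991), a value that was 0.14 without vehicle replicate 3 and 0.44 with a pseudocount of 0.1.

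**Figure D3:**
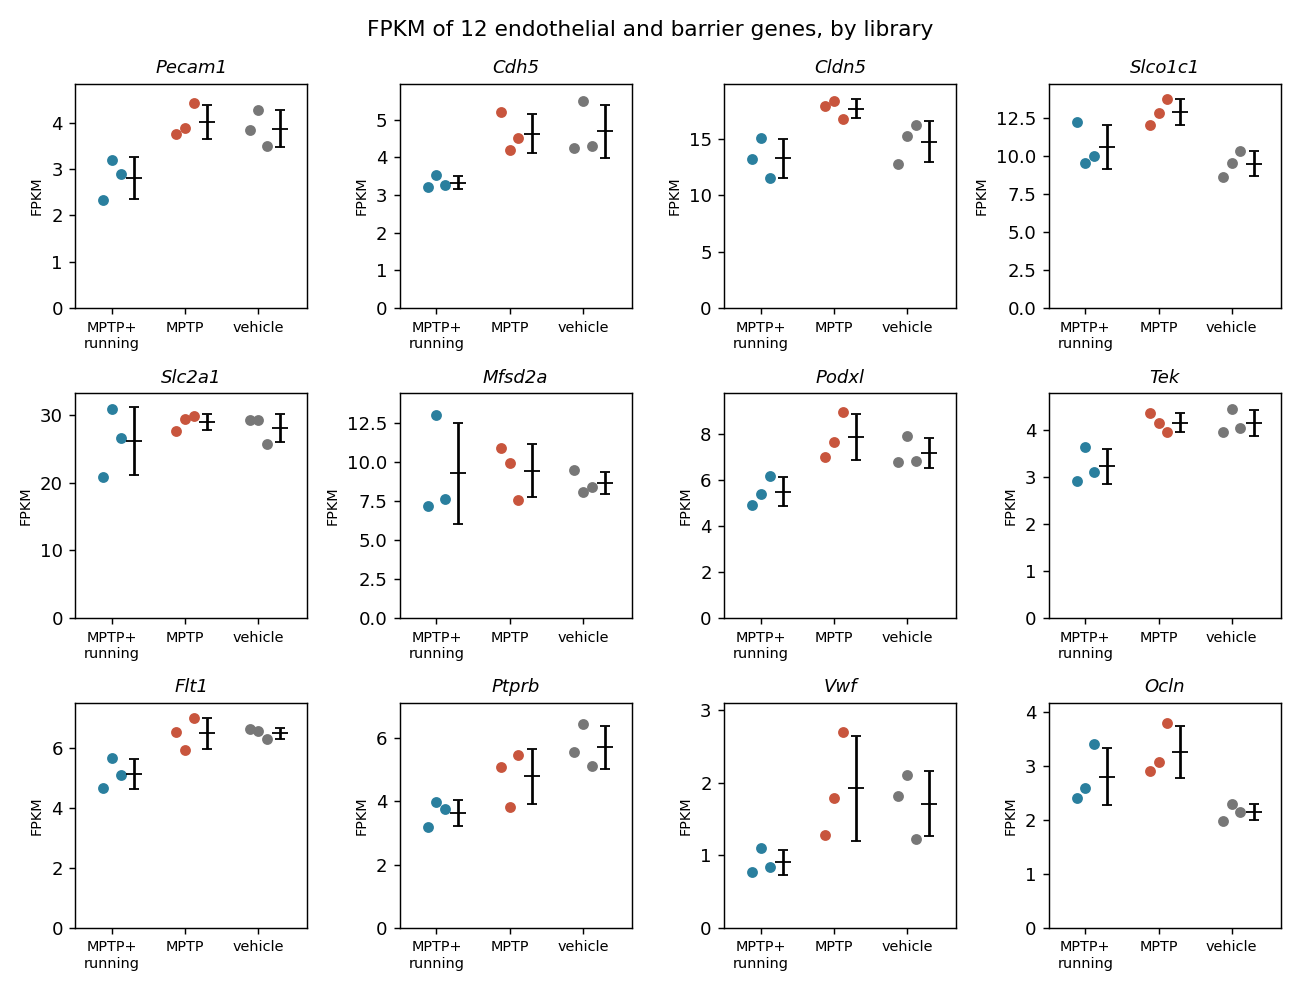
Each point is the FPKM of 1 library for 12 of the genes, with MPTP + running, MPTP and vehicle from left to right, and the bar beside the points is the mean with its SD (n = 3). For Pecam1, Cdh5, Tek, Flt1, Podxl and Vwf the 3 running points are the lowest of the 9, for Cldn5 the 3 MPTP points are the highest, and for Mfsd2a the groups overlap.

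Of the 8 receptor genes, 7 were lower in running than in MPTP libraries (median −0.28) and 6 lower in running than in vehicle libraries (median −0.19), while the median for MPTP minus vehicle was 0.04. Tek encodes Tie2, the angiopoietin receptor, and was at 2.91, 3.64 and 3.12 FPKM in running libraries, 4.36, 4.15 and 3.95 in MPTP libraries and 3.95, 4.46 and 4.04 in vehicle libraries. The running values were the 3 lowest and the other groups had the same mean, 4.15 FPKM. Its difference was −0.29 (SE 0.09) against MPTP and −0.29 (SE 0.09) against vehicle (limma, adjusted p = 1 and 0.753). Flt1, VEGF receptor 1, was at 4.65, 5.65 and 5.10 FPKM in running libraries, 6.54, 5.93 and 6.98 in MPTP libraries and 6.63, 6.56 and 6.29 in vehicle libraries. It showed the same separation, with −0.29 (SE 0.09) in both comparisons of running libraries. Ptprb, the phosphatase that acts on Tie2 and at VE-cadherin, was at 3.19, 3.97 and 3.74 FPKM in running libraries, 5.10, 3.81 and 5.45 in MPTP libraries and 5.57, 6.45 and 5.11 in vehicle libraries. MPTP replicate 2 lay among the running values, and every vehicle library lay above every running library, with a difference of −0.53 (SE 0.13, limma adjusted p = 0.753), the largest below 0 among the 39 genes for running minus vehicle.

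Kdr, VEGF receptor 2, was at 1.57, 1.69 and 1.80 FPKM in running libraries, 2.39, 2.22 and 2.23 in MPTP libraries and 1.79, 2.28 and 1.81 in vehicle libraries. Running and MPTP libraries did not overlap, and vehicle replicates 1 and 3 lay beside the highest running value. Eng, the TGF-β co-receptor endoglin, averaged 3.96 ± 0.523 FPKM in running, 4.97 ± 0.192 in MPTP and 4.80 ± 0.693 in vehicle libraries, and Tie1, the partner of Tie2, 2.27 ± 0.368, 2.698 ± 0.358 and 2.62 ± 0.311 in the same order. Robo4, a Roundabout receptor of endothelium, stood within 0.08 of 0 in each of the 3 comparisons, at 1.13 ± 0.0926, 1.24 ± 0.124 and 1.12 ± 0.194 FPKM in running, MPTP and vehicle libraries. Ramp2, which makes the calcitonin receptor-like receptor bind adrenomedullin, was at 2.84, 3.13 and 5.00 FPKM in running libraries, 3.31, 3.77 and 3.44 in MPTP libraries and 2.700, 2.95 and 2.17 in vehicle libraries. MPTP values all lay above vehicle values (0.33, SE 0.17, limma adjusted p = 0.991), and running replicate 3 held the highest value. Ramp2 is uncertain, since 1103 of its exon bases (33.4%) are shared with Vps25 on the same strand, which was at 8.34 FPKM on average.

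All 7 of the other surface proteins were lower in running than in MPTP libraries, with a median of −0.26, and the median was 0.13 for MPTP minus vehicle. Podxl, the luminal sialomucin podocalyxin, was at 4.90, 5.39 and 6.14 FPKM in running libraries, 6.98, 7.61 and 8.92 in MPTP libraries and 6.77, 7.89 and 6.80 in vehicle libraries. Running libraries were the 3 lowest and MPTP replicate 3 the highest. With −0.45 (SE 0.11) for running minus MPTP, Podxl had the smallest unadjusted limma p of the 39 genes in that comparison, 0.00366, with an adjusted limma p of 1, and its difference from vehicle was −0.33 (SE 0.11, limma adjusted p = 0.753). Ly6a, the surface protein Sca-1, which interferons are known to induce, was at 17.2, 11.8 and 14.1 FPKM in running libraries, 10.8, 28.7 and 23.7 in MPTP libraries and 14.8, 8.77 and 7.37 in vehicle libraries. MPTP replicates 2 and 3 held the highest values and MPTP replicate 1 lay below vehicle replicate 1, so the groups overlapped. At 0.91 (SE 0.36) for MPTP minus vehicle it had the widest difference of the 39 genes (limma adjusted p = 0.991). Emcn, the sialomucin endomucin, averaged 1.12 ± 0.133 FPKM in running, 1.46 ± 0.196 in MPTP and 1.26 ± 0.211 in vehicle libraries. Cd93 and Clec14a, related lectin-like receptors that bind the matrix protein Mmrn2, averaged 1.45 ± 0.150 and 1.03 ± 0.170 FPKM in running, 1.72 ± 0.128 and 1.54 ± 0.333 in MPTP, and 1.80 ± 0.257 and 1.28 ± 0.183 in vehicle libraries. Ly6c1, another surface protein anchored by lipid, ran from 13.04 to 19.2 FPKM in running, 16.6 to 21.5 in MPTP and 10.6 to 19.4 in vehicle libraries. Itm2a, a membrane protein enriched in brain endothelium, averaged 33.4 ± 4.25, 34.5 ± 5.13 and 31.3 ± 1.47 FPKM in running, MPTP and vehicle libraries. Ly6c1 has a near-identical copy, Ly6c2, at 0.186 to 0.503 FPKM.

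The 8 transporter genes were all lower in running than in MPTP libraries (median −0.19), 7 had higher means in MPTP libraries than in vehicle libraries (median 0.11), and running libraries against vehicle libraries split 4 higher and 4 lower (median −0.06). Slco1c1, which carries thyroxine into the brain and is also made by astrocytes, was at 12.3, 9.55 and 9.99 FPKM in running libraries, 12.04, 12.9 and 13.8 in MPTP libraries and 8.67, 9.58 and 10.3 in vehicle libraries. Every MPTP library lay above every vehicle library, and running replicate 1 reached the MPTP values. It was 0.40 higher in MPTP than in vehicle libraries (SE 0.11), the smallest unadjusted limma p of the 39 genes in that comparison, 0.00554, with an adjusted limma p of 0.840. Slc2a1, GLUT1, was at 20.9, 30.9 and 26.7 FPKM in running libraries, 27.6, 29.4 and 29.95 in MPTP libraries and 29.3, 29.3 and 25.7 in vehicle libraries. Running replicate 1 was the lowest and running replicate 2 the highest of the 9, so no order of groups appeared, with −0.16 (95% interval −0.46 to 0.14) for running minus MPTP. Mfsd2a, the carrier of docosahexaenoic acid that keeps vesicle transport low, was at 7.18, 13.03 and 7.64 FPKM in running libraries, 10.9, 9.96 and 7.55 in MPTP libraries and 9.49, 8.10 and 8.42 in vehicle libraries. Its widest spread was among the running libraries, and all 3 differences lay between −0.06 and 0.10, each with an SE of 0.21.

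Abcb1a, P-glycoprotein, was at 7.03, 8.73 and 6.94 FPKM in running libraries, 8.79, 8.55 and 9.54 in MPTP libraries and 9.45, 9.77 and 8.86 in vehicle libraries. Running values lay below all vehicle values (−0.28, SE 0.10, limma adjusted p = 0.753), and running replicate 2 overlapped the MPTP values. Abcb1b, its near-identical copy, was at 0.475 to 0.643 FPKM, and reads can be split between such copies. Abcg2, the other large efflux pump of the barrier, averaged 2.61 ± 0.0527, 2.92 ± 0.438 and 2.49 ± 0.0689 FPKM in running, MPTP and vehicle libraries. Slco1a4, a carrier of organic anions, averaged 9.16 ± 1.38 FPKM in running, 10.8 ± 0.117 in MPTP and 10.4 ± 0.367 in vehicle libraries. Slc16a1, the lactate carrier MCT1, averaged 11.5 ± 1.53, 12.99 ± 1.06 and 11.5 ± 1.64 FPKM in the same order. Bsg, basigin, which brings MCT1 to the membrane, averaged 124 ± 7.88 FPKM in running, 148 ± 9.53 in MPTP and 138 ± 18.6 in vehicle libraries, with running values all below MPTP values (−0.26, SE 0.11, limma adjusted p = 1).

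The 6 transcription factors stayed between 0.468 and 4.06 FPKM in every library, with medians of 0.17 for MPTP minus vehicle, −0.22 for running minus MPTP and 0.00 for running minus vehicle. Sox17, a SoxF factor of arterial endothelium, was at 0.620, 0.518 and 0.655 FPKM in running libraries, 0.876, 0.971 and 0.877 in MPTP libraries and 0.629, 0.838 and 0.683 in vehicle libraries. MPTP libraries were the 3 highest, at −0.26 (SE 0.09) for running minus MPTP and 0.15 (SE 0.09) for MPTP minus vehicle (limma, adjusted p = 1 and 0.991). With a pseudocount of 0.1 the second was 0.31, since a pseudocount of 1 shrinks differences of genes under 1 FPKM. Sox7 and Sox18, the other SoxF factors, averaged 0.610 ± 0.137 and 2.60 ± 0.792 FPKM in running, 0.597 ± 0.0713 and 3.26 ± 0.698 in MPTP, and 0.625 ± 0.119 and 2.32 ± 0.709 in vehicle libraries. The ETS factors had lower means in running than in MPTP libraries by 0.03 for Erg, 0.20 for Fli1 and 0.26 for Ets1 on the log2 scale, and each of the 3 overlapped. Erg averaged 1.66 ± 0.279, 1.71 ± 0.236 and 1.55 ± 0.204 FPKM in running, MPTP and vehicle libraries. Fli1 and Ets1 are also made by immune cells, and Ets1 was at 0.861, 0.924 and 1.64 FPKM in running libraries, 1.17, 1.69 and 1.77 in MPTP libraries and 1.03, 0.975 and 1.26 in vehicle libraries.

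Of the secreted proteins and enzymes, Vwf, von Willebrand factor of the Weibel-Palade body, was at 0.764, 1.10 and 0.843 FPKM in running libraries, 1.28, 1.79 and 2.701 in MPTP libraries and 1.82, 2.10 and 1.22 in vehicle libraries. The 3 running values were the lowest, and MPTP replicate 3 held the highest. Its difference was −0.60 (SE 0.19) for running minus MPTP and −0.50 (SE 0.19) for running minus vehicle (limma, adjusted p = 1 and 0.753). These were −0.97 and −0.84 with a pseudocount of 0.1. Egfl7, an endothelial protein of the vessel matrix, averaged 3.48 ± 0.457, 3.95 ± 0.434 and 3.44 ± 0.471 FPKM in running, MPTP and vehicle libraries. Nos3, the endothelial nitric oxide synthase, averaged 2.15 ± 0.330, 2.67 ± 0.494 and 2.497 ± 0.567 FPKM, and Nostrin, which moves that enzyme away from the membrane, 2.15 ± 0.721, 2.27 ± 0.663 and 1.91 ± 0.161 FPKM, in the same order. For each of these 3 the groups overlapped in all comparisons. Eng, Egfl7 and Nos3 share exon bases on the opposite strand with Fpgs (61 bases), Agpat2 (64) and Atg9b (294), and the sources used here give no strandedness, so reads in those bases cannot be assigned to 1 gene.

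The ligands of these receptors were read from a list of 9 VEGF and angiopoietin genes, of which 8 could be tested. Vegfa, the main ligand of Kdr and Flt1, was at 12.2, 12.3 and 11.2 FPKM in running libraries, 16.2, 14.5 and 14.8 in MPTP libraries and 11.7, 12.03 and 11.4 in vehicle libraries. MPTP libraries were the 3 highest, and the differences were 0.35 (SE 0.08) for MPTP minus vehicle and −0.33 (SE 0.08) for running minus MPTP (limma, adjusted p = 0.637 and 1). The list as a whole had medians of 0.00, −0.09 and −0.05 for MPTP minus vehicle, running minus MPTP and running minus vehicle. In limma 0 of its genes passed the adjusted threshold. At an unadjusted p under 0.05, 1 was higher for MPTP minus vehicle, 1 lower for running minus MPTP and 0 for running minus vehicle. Among all genes 2.61% were higher in the first and 2.89% lower in the second. Angpt2, the context-dependent angiopoietin, averaged 0.479 ± 0.212 FPKM in running, 0.707 ± 0.356 in MPTP and 0.758 ± 0.222 in vehicle libraries, within overlapping ranges.

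Among 17 genes of Wnt signalling at the barrier, 0 passed in limma. Medians were 0.00, −0.08 and −0.08 for MPTP minus vehicle, running minus MPTP and running minus vehicle. At an unadjusted p under 0.05 in limma, 1, 5 and 4 were lower in that order. Among all genes 1.48%, 2.89% and 3.43% were so. Reck, which presents Wnt7 ligands to endothelial receptors, was at 2.01, 1.97 and 2.22 FPKM in running libraries, 3.03, 2.80 and 3.43 in MPTP libraries and 3.19, 2.87 and 2.98 in vehicle libraries. The running values lay below all others (−0.41 against MPTP and −0.39 against vehicle, SE 0.09 each, limma adjusted p = 0.857 and 0.753). Axin2, a target of β-catenin in many cell types, averaged 2.91 ± 0.318 FPKM in running, 3.85 ± 0.206 in MPTP and 4.08 ± 0.806 in vehicle libraries, and its running values did not overlap either group. Sox21, another gene of that list, averaged 1.58 ± 0.188 FPKM in running, 2.17 ± 0.258 in MPTP and 2.09 ± 0.220 in vehicle libraries.

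Of 13 tested junction genes, 0 passed in limma. At an unadjusted p under 0.05, 3 were lower in running than in MPTP libraries and 1 in running than in vehicle libraries. Among all genes 2.89% and 3.43% were so. The 1 gene higher in MPTP than in vehicle libraries at that p, as 2.61% of all genes were, was F11r. F11r, junctional adhesion molecule A, averaged 3.10 ± 0.125 FPKM in running, 4.06 ± 0.444 in MPTP and 3.30 ± 0.257 in vehicle libraries, and Lsr, a tricellular junction protein, 2.42 ± 0.366, 3.37 ± 0.305 and 3.19 ± 0.496 FPKM in the same order. Of 17 further carriers and receptors of the barrier, 0 passed in limma. At an unadjusted p under 0.05 running libraries were lower for 5 and higher for 1 against MPTP, and lower for 5 against vehicle. Among all genes 2.89%, 1.11% and 3.43% were so. Slc22a8, an organic anion carrier of brain endothelium, averaged 3.21 ± 0.429 FPKM in running, 4.88 ± 0.422 in MPTP and 4.23 ± 0.662 in vehicle libraries. The 1 gene in the other direction was Insr, the insulin receptor, which many brain cells make, at 3.80, 4.43 and 4.17 FPKM in running libraries, 2.69, 1.34 and 3.04 in MPTP libraries and 5.35, 4.81 and 5.34 in vehicle libraries (−0.92, SE 0.18, for MPTP minus vehicle, limma adjusted p = 0.508).

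Of 10 tested genes of endothelial activation and leakage, 8 had higher means in MPTP than in vehicle libraries. In running libraries 8 had lower means than in MPTP libraries, where 48.1% and 54.3% of all genes were so. In each, 1 was so at an unadjusted p under 0.05 in limma, against 2.61% and 2.89% of all genes. None passed the adjusted threshold. Vcam1, the leukocyte adhesion molecule, averaged 4.12 ± 0.714 FPKM in running, 4.44 ± 0.648 in MPTP and 3.43 ± 0.0702 in vehicle libraries. Edn1, the vasoconstrictor endothelin-1, averaged 0.833 ± 0.0887, 1.27 ± 0.0819 and 0.927 ± 0.280 FPKM in running, MPTP and vehicle libraries. Plvap, which forms the diaphragms of leaky vessels and is largely absent from mature barrier endothelium, was at 2.97, 3.01 and 3.31 FPKM in running libraries, 3.72, 3.85 and 3.73 in MPTP libraries and 2.69, 4.35 and 2.81 in vehicle libraries. It was above 0 in every library. Plvap is known from the vessels of the choroid plexus, but its source in these libraries was not tested. Of 13 Notch and arterial genes, 11 had lower means in running than in MPTP and 10 in running than in vehicle libraries. Among all genes 54.3% and 55.3% were lower. At an unadjusted p under 0.05 in limma, 1 and 3 were lower, against 2.89% and 3.43% of all genes. The adjusted threshold was passed by 0. Jag2, a Notch ligand, averaged 3.73 ± 0.182 FPKM in running, 4.68 ± 0.527 in MPTP and 4.70 ± 0.583 in vehicle libraries.

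A further list held 28 tested endothelial-enriched genes, none of them among the 39. Of these, 25 had lower means in running than in MPTP libraries and 24 in running than in vehicle libraries. Among all genes 54.3% and 55.3% were lower. The medians of the list were −0.14 and −0.17. At an unadjusted p under 0.05 in limma, 5 and 4 were lower, against 2.89% and 3.43% of all genes, and 0 passed the adjusted threshold. Against vehicle, MPTP libraries were higher for 12 and lower for 16, with a median of −0.01. Among all genes 48.1% were higher and 51.8% lower there. Mmrn2, the matrix ligand of Cd93 and Clec14a, was at 1.06, 1.198 and 1.01 FPKM in running libraries, 1.77, 1.57 and 2.09 in MPTP libraries and 1.58, 1.37 and 1.23 in vehicle libraries. Its running values were the 3 lowest, with −0.42 (SE 0.10) for running minus MPTP (limma adjusted p = 1). Adgrf5, an adhesion receptor of endothelium, averaged 5.21 ± 0.309 FPKM in running and 7.25 ± 0.998 in vehicle libraries.

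Markers of other cells in the vessel wall and at the brain's borders also lay lower in running libraries, with 0 past the adjusted threshold in limma. Among all genes 54.3% had lower means in running than in MPTP and 55.3% in running than in vehicle libraries. Of 15 tested pericyte and smooth muscle markers, 15 had lower means in running than in MPTP and 15 in running than in vehicle libraries (medians −0.22 and −0.18), and the 16 markers summed to 73.2 to 92.5 FPKM in running, 96.2 to 110.0 in MPTP and 94.3 to 126 in vehicle libraries. None of the 16 was listed at 0. Pdgfrb, the receptor that defines pericytes, was at 3.35, 3.82 and 3.81 FPKM in running libraries, 5.16, 4.84 and 4.77 in MPTP libraries and 4.50, 5.08 and 4.83 in vehicle libraries, so the running values were the 3 lowest. Of 13 tested fibroblast and meningeal markers, 13 had lower means in running than in MPTP and 12 in running than in vehicle libraries, with sums over 14 markers of 237 to 350 FPKM in running, 347 to 515 in MPTP and 257 to 498 in vehicle libraries and 0 listed at 0. For MPTP minus vehicle, 7 of 15 mural and 9 of 13 fibroblast markers were higher, where 48.1% of all genes were. The part of these cells in the results for the 39 genes was not tested.

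The means of choroid plexus and interferon genes were highest in the MPTP group. Among all genes 48.1% had higher means in MPTP than in vehicle libraries and 54.3% lower means in running than in MPTP libraries. At an unadjusted p under 0.05 in limma 2.61% and 2.89% were so. All 13 choroid plexus markers had higher means in MPTP than in vehicle libraries (median 1.53) and lower means in running than in MPTP libraries (median −1.07), and their sum was 95.1 to 1063 FPKM in running, 1099 to 2306 in MPTP and 107 to 420 in vehicle libraries, with 0 of the 13 listed at 0. Running replicate 2 had the lowest choroid plexus sum of the 9 libraries. It had 4 of the 39 endothelial genes at their highest value and 1 at its lowest, and a relation between these levels was not tested. All 18 interferon-response genes had higher means in MPTP than in vehicle libraries (16 at an unadjusted p under 0.05, median 1.04) and lower means in running than in MPTP libraries (13 at that p, median −0.62), with 0 genes of either list past the adjusted threshold in limma. The mean log2(FPKM + 1) of the interferon genes was 1.996, 2.02 and 2.04 in running libraries, 2.04, 2.83 and 3.22 in MPTP libraries and 1.66, 1.67 and 1.60 in vehicle libraries. MPTP replicates 2 and 3 held the highest interferon means and the highest Ly6a values of the 9 libraries. The other libraries did not share an order: MPTP replicate 1 had an interferon mean above every vehicle library and a Ly6a value below vehicle replicate 1 and below every running library. The mean of the 39 endothelial genes on the same scale was 2.26, 2.45 and 2.33 in running libraries, 2.499, 2.61 and 2.61 in MPTP libraries and 2.42, 2.49 and 2.37 in vehicle libraries.

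Haemoglobin transcripts, which come from blood cells, varied widely between libraries. The 4 haemoglobin genes summed to 14.3, 10.7 and 45.2 FPKM in running libraries, 31.2, 53.9 and 40.4 in MPTP libraries and 50.5, 59.2 and 435 in vehicle libraries. Vehicle replicate 3 stood far above the others, and running replicates 1 and 2 were the lowest. Running replicate 1 held the lowest value of 21 of the 39 endothelial genes and running replicate 2 that of 1. Whether haemoglobin and endothelial levels are related over the libraries was not tested. The 13 microglial markers had a median difference of 0.11 for MPTP minus vehicle and −0.11 for running minus MPTP, and the 10 astrocyte markers of 0.06 and 0.01, again with 0 past the adjusted threshold in limma. The part of choroid plexus, interferon genes and blood in the results for the 39 genes was not tested.

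**Figure D4:**
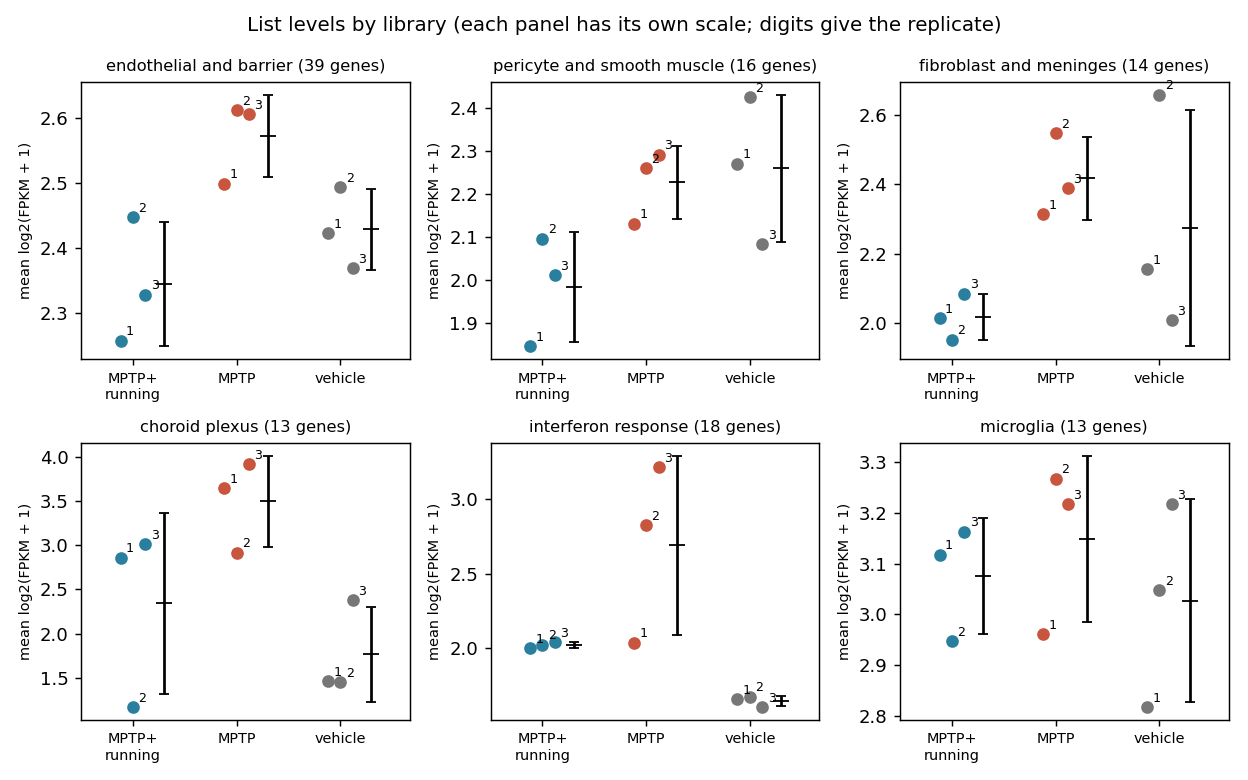
Each point is the mean log2(FPKM + 1) of a gene list in 1 library, with MPTP + running, MPTP and vehicle from left to right, digits for the replicate and bars for the mean with its SD (n = 3), and each panel has its own scale. The 39 endothelial and barrier genes sit at 2.26 to 2.45 in running libraries, 2.499 to 2.61 in MPTP libraries and 2.37 to 2.49 in vehicle libraries, while the choroid plexus list spreads from 1.17 to 3.92 over the 9 libraries.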

How the data were processed

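The authors deposited 1 table of FPKM, with 55335 genes by 9 libraries, and its values were taken without change. mRNA was enriched on magnetic beads from total RNA, fragmented and sequenced on an Illumina NovaSeq6000, per the labels. The submitters' processing notes name bcl2fastq, HTSeq, DESeq2 and the build GRCm38, without versions or roles. The sources used here name no aligner, FPKM tool or strandedness. Neither reads nor counts entered this work.

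Symbols, positions and exon overlaps came from GENCODE M21 on GRCm38 (55154 genes matched, 181 not), and 2 symbols of the lists (Eltd1 and Ahsp) had no row. Tests used limma 3.58.1 in R 4.3.3 on log2(FPKM + 1) with a trended prior variance, after leaving out genes whose mean was under 0.5 FPKM, with the 9 libraries in 1 fit of 3 group means (6 residual and 2.68 prior degrees of freedom), two-sided, with Benjamini-Hochberg adjustment over the 15997 genes and a threshold of 0.05. The fit was tested on simulated data. The 39 genes and all lists were chosen with earlier results of these data known. Per-library values are given for 6 defining markers and the 6 smallest p per comparison. They are also given for up to 5 genes per comparison and direction whose groups do not overlap. Some genes outside these rules, such as Kdr, Abcb1a and Ets1, are given by library as well. In each pathway list genes were named from up to 3 with the smallest p per comparison.

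Replicate numbers have no stated meaning. Over all genes tested, same-numbered MPTP and vehicle libraries deviated together from their group means (correlations 0.25, 0.33 and 0.11). The deviations within a group sum to 0, so these correlations are not independent. Whether the numbers pair the samples is not known. The main fit left them out, and a block by replicate number was an alternative. Running libraries gave −0.34, −0.13 and 0.25 with MPTP libraries of the same number, and −0.26, 0.0069 and 0.24 with vehicle libraries. Figures were drawn with matplotlib 3.10.9 in Python 3.11.15 (pandas 2.3.3, numpy 2.4.6). Fragment numbers are estimates, since 37.6% to 40.3% of low values lay within 2% of a step. Alternatives changed the pseudocount, filter, scaling, weights, trend, block and libraries.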

Additional observations from a re-analysis of the deposited data

How the results depend on the processing

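None of the 39 genes passed the adjusted limma threshold in any of the 3 comparisons under any of the 20 alternatives. For 22 results, picked for the smallest p or for groups without overlap, all 426 recomputed values kept their direction and side of the threshold. Their lowest adjusted limma p was 0.301. Several alternatives, such as the filter, the trend, the block or leaving out a library of the third group, cannot change a fitted difference. Nor can leaving out 1 library change the sign of a gene whose groups do not overlap, so much of this was fixed in advance. Other genes given by library, such as Mfsd2a, were not among the 22. The median difference of the 39 genes lay between 0.04 and 0.16 for MPTP minus vehicle, −0.29 and −0.18 for running minus MPTP, and −0.15 and −0.05 for running minus vehicle. The 0.04 came with rescaling to the same sum, where the median of all genes was −0.07. With the replicate number as a block in a fit of 6 libraries, 0 of the 39 passed in each comparison. The median differences (0.11, −0.23 and −0.10) cannot change under the block in this balanced design, and the block changed no call of MPTP against vehicle among the 39. For running minus MPTP, the block left 6 in place of 15 genes lower at an unadjusted p under 0.05 in limma. Correlations of same-numbered running libraries with the other groups had mixed signs, and whether those libraries pair is not known. Among all genes, limma called 2 for MPTP minus vehicle, 0 with the block and 32 without MPTP replicate 1, and for running minus MPTP 0, with 25 without MPTP replicate 1. Of 1195 recomputed values of named pathway genes, 1 changed sign: Vegfb, a VEGF ligand, was at 0.10 for running minus vehicle, −0.0039 without running replicate 2 and up to 0.17 without running replicate 1, and the cause was not tested. Leaving out the 4 genes that share exons with another expressed gene, an alternative chosen after seeing the data, gave medians of 0.11, −0.25 and −0.10. With a filter of 5 FPKM, 13 of the 39 genes were left. Of these, 7 were lower at an unadjusted p under 0.05 in limma for running minus MPTP and 3 for running minus vehicle. The share of all genes at that filter is not given here, so whether these counts are unusual cannot be read from them. The median level of the 39 genes was 3.56 FPKM, and counting error was not separated from the spread between the 3 libraries of a group.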
